A study of Mus musculus with 12 samples.

Results

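Spinal cord of Olig2cre/DA-Cat mice at day 15 was compared with spinal cord of the same genotype at day 4. The samples were chosen by the genotype and the day in their titles, which gave 3 at each day, or 6 of the 12 samples of the series. The other 6 came from wild-type littermates, 3 at day 4 and 3 at day 15, and served here for setting the size of each change between days. The mice of both groups compared carried Olig2cre, which drives Cre recombinase in cells that use the Olig2 gene, among them the progenitors of oligodendrocytes and of motor neurons, together with DA-Cat, a conditional dominant-active allele of β-catenin. Since both days carried both alleles, the comparison between days does not by itself measure the effect of the mutation, and no group with Cre alone was analysed here. The labels tag the days as a developmental stage, but the protocol given with the same samples describes lysolecithin lesions of adult white matter, so what the days are counted from is unsettled. The replicates are called biological, with no statement of how many animals a sample held. P-values therefore measure only the spread between these samples.

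Oligodendrocytes arise from precursor cells that divide, leave the cell cycle, pass through a short newly formed state and then make myelin, the lipid-rich sheath around axons. β-catenin carries the canonical Wnt signal into the nucleus, and this signal is known to delay the last steps of that maturation. Several of its direct targets, such as Axin2, Nkd1 and Notum, encode inhibitors that dampen the signal. In a maturing spinal cord dividing progenitors and radial glia become fewer, neurons end axon growth and exchange receptor subunits, and astrocytes take up potassium and glutamate handling.

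Total RNA was labelled and hybridised to 12 Affymetrix 3' arrays, 1 per sample. A level below is the deposited log2 signal of a gene's probe set, and a difference is the day 15 mean minus the day 4 mean on the log2 scale, with its standard error (SE) and n = 3 arrays per day. Levels of different genes depend on their probes and were not set against each other. A gene was called where limma's Benjamini-Hochberg adjusted p, over 18194 genes, was below 0.05. Array medians lay between 6.14 and 6.19, and the median level of 15 bacterial control probe sets was 3.07, so a group mean under 5 was read as limited by background. Neuronal Snap25 was at 12.31 to 12.48 at day 4 and 12.89 to 13.09 at day 15, and the motor neuron gene Slc18a3, the vesicular acetylcholine transporter, at 7.95 to 8.58, so the samples held RNA of grey matter as well as of white matter. In such bulk samples fewer cells of a type and less RNA per cell cannot be told apart.

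Skeletal muscle RNA varied between the samples. The mean level of 18 adult muscle genes was 5.93, 8.51 and 7.36 in replicates 1 to 3 at day 4 and 11.43, 5.91 and 9.08 at day 15. Day 15 replicate 1, the array richest in these genes, also stood apart from the other arrays on the second principal component, which held 10.1% of the variance. Xist, expressed from the inactive X of females, was at 12.05, 5.49 and 11.60 at day 4 and 10.73, 12.50 and 12.19 at day 15. Eif2s3y, a gene of the Y chromosome, was at 7.17, 8.56 and 7.92 at day 4 and 7.94, 3.29 and 6.54 at day 15. Several arrays thus carried high levels of both. The part of muscle and of sex in single results was not tested beyond the alternatives given beside them.

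Of 18194 genes, 8744 (48.1%) were called between the days in Olig2cre/DA-Cat cord, 3965 (21.8%) higher and 4779 (26.3%) lower at day 15. Centring each array on its median turned this split to 5131 higher and 4021 lower, so the balance between rises and falls over all genes has no settled direction. Genes that were called and at least 2-fold apart numbered 546 higher (3.00% of those tested) and 721 lower (3.96%). At 4-fold the balance was the other way, with 92 higher and 56 lower. The median difference over all genes was 0.00. The days did not overlap for 10220 of the 18194 genes, among them 8541 of the 8744 called, so separate days add little to a call. List counts below are to be set against the 21.8% higher and 26.3% lower over all genes. A list near those shares shows no more than genes at large. In wild type 8161 genes (44.9%) were called, 3869 (21.3%) higher and 4292 (23.6%) lower. The difference of the day effects between the genotypes was called for 64 genes (0.352%), 35 with a more positive and 29 with a more negative change in Olig2cre/DA-Cat. The genotypes share no array in these contrasts.

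**Figure D1:**
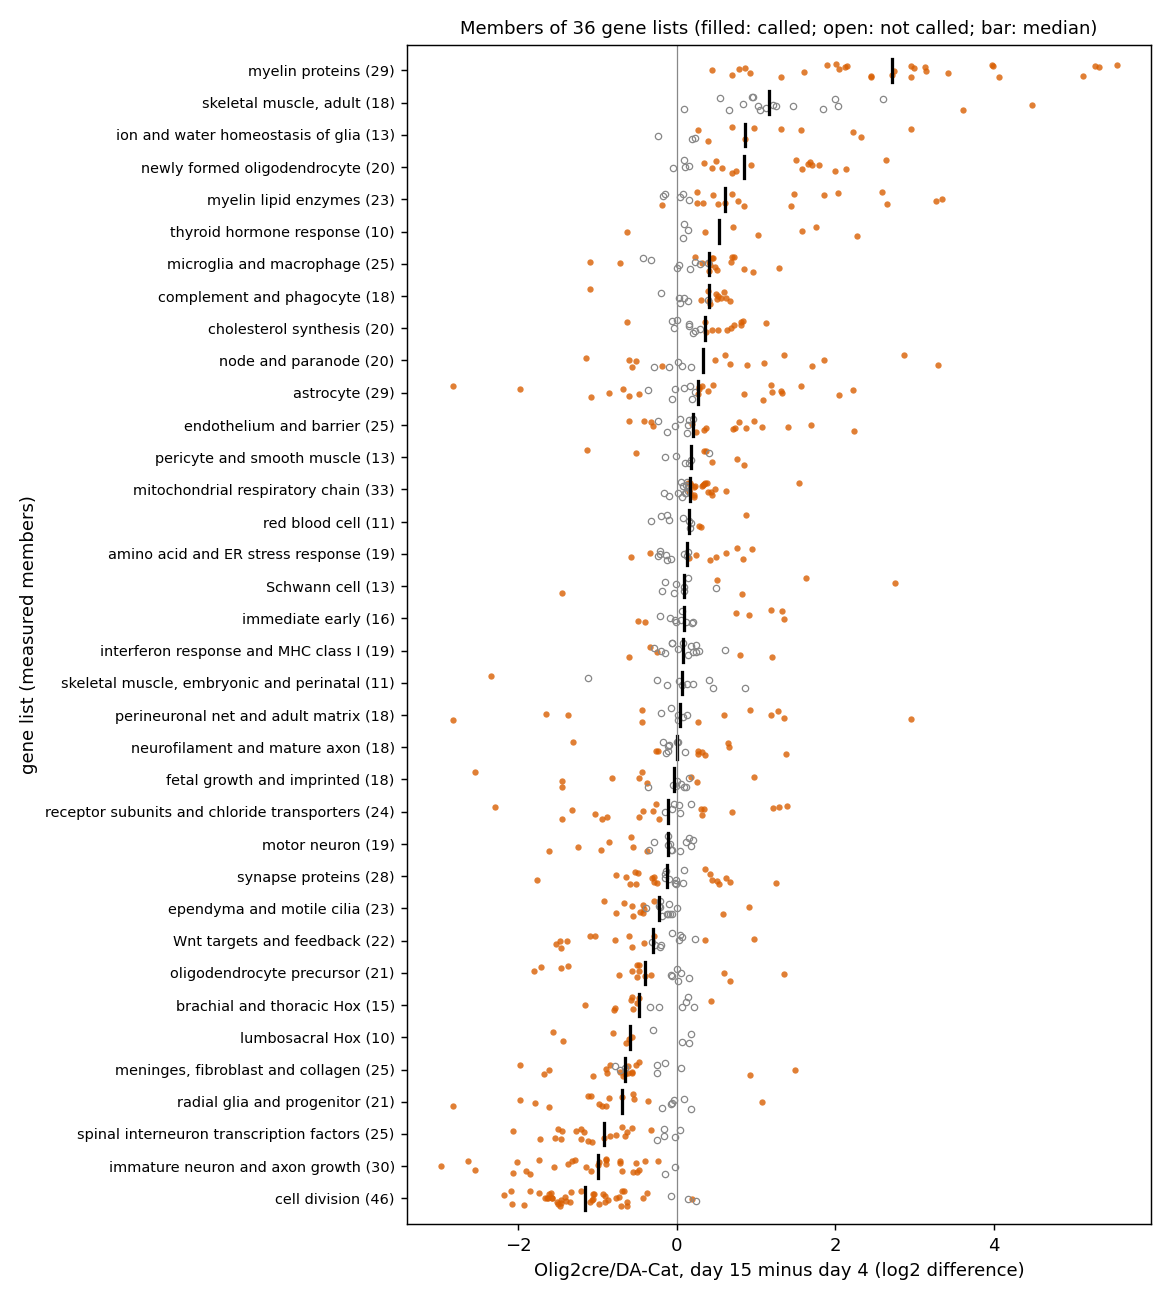
Difference between day 15 and day 4 in Olig2cre/DA-Cat cord (horizontal axis, log2) for the measured members of 36 gene lists (vertical axis, number of members in brackets); filled points were called, open points were not, and the bar is the list's median. Myelin proteins lie farthest to the right with a median of 2.72, and cell division genes farthest to the left with a median of -1.15, against 0.00 over all genes.

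The 4 largest rises were those of Klk6, Mog, Opalin and Ermn, all genes of mature oligodendrocytes. Klk6, a secreted protease of mature oligodendrocytes, rose by 5.55 ± 0.18 (SE; adjusted p = 9.71e-10), from 5.33, 5.24 and 5.16 at day 4 to 11.12, 10.91 and 10.35 at day 15. Mog, a glycoprotein of the outermost myelin layer, rose by 5.33 ± 0.16 (adjusted p = 4.84e-10). Its levels were 5.80, 5.51 and 5.10 at day 4 and 10.62, 11.05 and 10.73 at day 15, a 40.3-fold change that started close to the background. Opalin, a membrane glycoprotein of mature oligodendrocytes, went from 5.52, 4.97 and 5.56 to 10.34, 10.82 and 10.73 (difference 5.28 ± 0.21), and a second probe set of the gene gave 0.80. Ermn, a cytoskeletal protein of late myelination, went from a mean of 5.82 ± 0.17 (SD, n = 3) to 10.76, 11.21 and 10.84 (difference 5.12 ± 0.14). Days that did not overlap were a condition for the choice of these genes, so the separation of the days in the 4 is no added support. The other 11 of the 15 largest rises were those of Pvalb, Fam107a, Ppp1r14a, Mal, Tmem88b, Mobp, Pdlim2, Kcng4, Tmem125, Fa2h and Scn4b. Fam107a, an actin-associated gene in none of the lists, went from 7.67, 6.98 and 6.54 to 11.79, 10.89 and 11.72 (difference 4.41 ± 0.26, adjusted p = 5.68e-08; 4.79 in wild type). Ppp1r14a, an inhibitor of a protein phosphatase, rose by 4.27 ± 0.18 and Pdlim2, a cytoskeletal adaptor, by 3.66 ± 0.15.

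All 29 measured members of the myelin protein list were called higher at day 15, and 24 of them rose at least 2-fold. Their differences ran from 0.45 to 5.55. In wild type the same 29 were called higher, with a median of 1.95. Qdpr, an enzyme of biopterin recycling that oligodendrocytes express strongly, had the lowest difference (0.45 ± 0.07, adjusted p = 0.000207).

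Genes of the myelin sheath proper rose too. Mbp, the basic protein that holds the cytoplasmic faces of myelin together, was at 12.67, 12.66 and 12.50 at day 4 and at 14.59, 14.64 and 14.62 at day 15 (difference 2.01 ± 0.06, adjusted p = 7.48e-10). The day 15 values stood close to the array maximum, which was 14.71 on the array where it was lowest, and the gene's 8 probe sets gave differences from -0.04 to 3.42. Mobp, another basic protein of compact myelin, rose from 9.48, 9.36 and 9.24 to 13.23, 13.47 and 13.32 (difference 3.98 ± 0.08, adjusted p = 9.44e-11), a 15.8-fold change. Cnp, the cyclic nucleotide phosphodiesterase of non-compact myelin, went from 12.53, 12.65 and 12.44 to 14.02, 14.26 and 14.18 (difference 1.61 ± 0.07).

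Adhesion and junction genes of the sheath rose as well. Mag, the glycoprotein of the membrane next to the axon, was between 8.90 and 9.09 on the day 4 arrays and at 11.88, 12.40 and 12.15 at day 15 (difference 3.15 ± 0.11, adjusted p = 1.43e-09). Cldn11, the claudin of myelin tight junctions, went from 8.11, 8.01 and 7.82 to 10.93, 11.32 and 11.11 (difference 3.14 ± 0.12). Mal, a proteolipid of myelin membrane transport, went from 9.27, 9.21 and 8.93 to 13.21, 13.33 and 13.08 (difference 4.07 ± 0.11). No replicate of day 15 came within 2 log2 units of a day 4 replicate in these 3 genes. Gjb1, the connexin of oligodendrocyte gap junctions, rose by 2.95 ± 0.16, and Hapln2, a link protein of the perinodal matrix, by 2.96 ± 0.09. Tmem88b rose by 3.99 ± 0.11 and Tmem125 by 3.42 ± 0.13, and a second probe set of Tmem125 gave 1.67. Gsn, the actin-severing protein gelsolin, rose by 3.18 ± 0.09, with its 6 probe sets between -0.13 and 3.57.

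**Figure D2:**
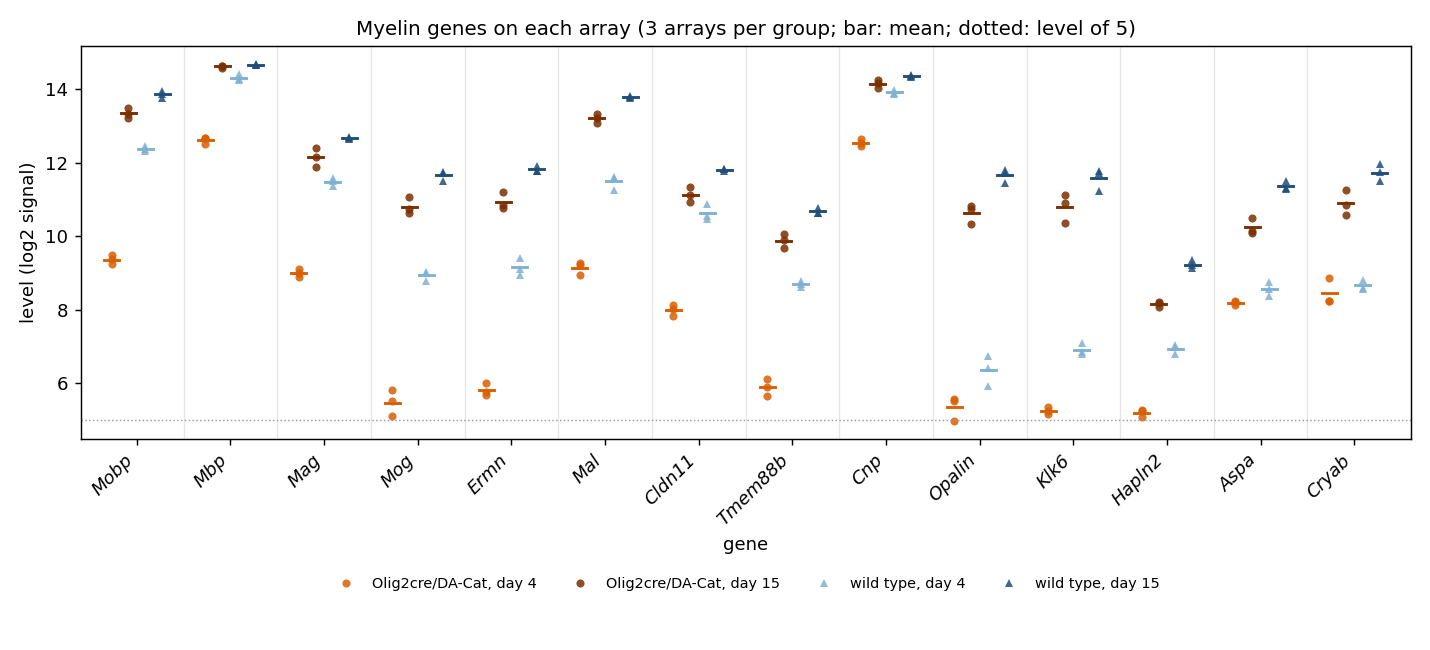
Level (log2 signal, vertical axis) of 14 myelin genes on each of the 12 arrays; circles are Olig2cre/DA-Cat and triangles wild type, light at day 4 and dark at day 15, the bars are group means and the dotted line is the level of 5. Mobp in Olig2cre/DA-Cat sits between 9.24 and 9.48 at day 4 and between 13.23 and 13.47 at day 15, while the wild-type mean goes from 12.38 to 13.86.

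The rise was steeper than in wild type for 12 of the 29 myelin protein genes, by the test of the difference of the day effects, and for none was it called shallower. Mbp rose by 2.01 in Olig2cre/DA-Cat and by 0.35 in wild type, where it began at 14.31 (difference of the day effects 1.66, adjusted p = 4.15e-06). Mobp rose by 2.50 more than in wild type (adjusted p = 1.41e-06) and Mog by 2.61 more (adjusted p = 0.000144). At day 4 the wild-type mean of each of the 3 lay above every Olig2cre/DA-Cat array. The nearness of Mbp and Cnp to the array maximum at day 15 limits what the difference can show for them. Wild-type Mbp was near it at day 4 already (14.31, against a lowest array maximum of 14.71), which limits the rise that wild type could show.

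For other mature oligodendrocyte genes the rise was not called different from wild type. Opalin rose by 5.28 against 5.30 in wild type (difference -0.02, adjusted p = 0.989). Klk6 rose by 5.55 against 4.66 (adjusted p for the difference = 0.263). Aspa, the enzyme that frees acetate from N-acetylaspartate, went from 8.23, 8.12 and 8.22 to 10.15, 10.50 and 10.08, a rise of 2.05 against 2.82 in wild type. Its difference of -0.76 missed the threshold (adjusted p = 0.0906). Ndrg1 rose by 1.32 against 2.10 (adjusted p for the difference = 0.135) and Cryab, a small heat shock protein, by 2.45 against 3.07 (adjusted p = 0.485), with another probe set of Cryab at -0.04. A p that misses the threshold does not show that the changes were equal.

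Among 23 enzymes and carriers of myelin lipids, 17 were called higher, 8 of them at least 2-fold, and 1 lower. Fa2h, which hydroxylates the fatty acids of myelin galactolipids, was at 7.98, 8.03 and 7.97 at day 4 and at 11.21, 11.48 and 11.34 at day 15 (difference 3.35 ± 0.08, adjusted p = 2.99e-10). Ugt8a, which makes galactosylceramide, went from 9.67, 9.82 and 9.43 to 12.74, 13.14 and 12.87 (difference 3.27 ± 0.12, adjusted p = 1.43e-09). Like most called genes, neither had overlapping days. Both rose more than in wild type, Fa2h by 1.55 (adjusted p = 9.02e-05) and Ugt8a by 1.97 (adjusted p = 0.000115). Sgpp2, a sphingosine phosphate phosphatase, rose by 2.65 ± 0.10, the very-long-chain elongase Elovl1 by 2.04 ± 0.11, the ceramide synthase Cers2 by 1.86 ± 0.11 and the desaturase Scd1 by 1.48 ± 0.06. Fasn, the fatty acid synthase, was the member called lower, by 0.19 ± 0.07 (adjusted p = 0.0402).

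Genes of cholesterol synthesis, the other main lipid of myelin, changed less. Of 20 measured, 11 were called higher and 1 lower, with a median difference of 0.36, and Sc5d alone rose at least 2-fold. Sc5d, a late desaturase of the pathway, went from 9.26, 9.23 and 9.26 to 10.27, 10.47 and 10.38 (difference 1.13 ± 0.07, adjusted p = 6.69e-08). Hsd17b7 rose by 0.84 ± 0.09. Hmgcs1, which makes the precursor of mevalonate, was already at 13.06 to 13.19 at day 4 and was at 13.43 to 13.69 at day 15 (difference 0.44 ± 0.07). Tm7sf2, a sterol reductase, fell by 0.63 ± 0.12 (adjusted p = 0.00061). In wild type 15 of the 20 were called higher and 1 lower.

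Genes of newly formed oligodendrocytes rose in the main. Of 20 measured, 16 were called higher, 9 at least 2-fold, and none lower, whereas in wild type 8 were called higher. Enpp6, a choline phosphodiesterase that marks cells beginning to myelinate, was at 7.50, 7.82 and 7.51 at day 4 and at 9.95, 10.55 and 10.26 at day 15 (difference 2.64 ± 0.14, adjusted p = 3.34e-08). Bcas1, a protein of early myelinating cells, went from 10.36, 10.45 and 10.13 to 12.28, 12.59 and 12.47 (difference 2.14 ± 0.09). The 3 probe sets of Bcas1 ranged from 0.37 to 2.14. In both genes the days were apart, as in most called genes.

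Sirt2, a deacetylase found in myelin, rose by 1.99 ± 0.10, Nfasc, the neurofascin of paranodes, by 1.66 ± 0.11, the transcription factor Nkx6-2 by 1.79 ± 0.10 and Cnksr3 by 1.68 ± 0.12. The 3 probe sets of Nfasc ranged from 0.735 to 1.662. For Enpp6, Bcas1, Sirt2, Nfasc and Cnksr3 the rise was called larger than in wild type, by 1.54, 1.35, 1.17, 1.17 and 1.55. Cnksr3 was at 10.07 in wild type at day 4 and at 10.20 at day 15 and was not called there. Myrf, the transcription factor that switches on myelin genes, rose by 1.70 ± 0.14 against 0.64 in wild type (adjusted p for the difference = 0.0516). Gpr17, a receptor of committed precursors, rose by 1.58 ± 0.18 and Bmp4, a growth factor made by the same cells, by 1.50 ± 0.15, each with an adjusted p of 0.06 for the difference from wild type. Tcf7l2, a Wnt transcription factor of newly formed oligodendrocytes, was at 6.50 on each day 4 array and at 6.35, 6.62 and 6.86 at day 15, with no call (difference 0.11 ± 0.14, adjusted p = 0.566).

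Of 21 precursor genes, 12 were called lower, 4 at least 2-fold, and 3 higher. Cacng4, an auxiliary subunit of AMPA receptors, fell by 1.79 ± 0.14, from 10.47, 10.55 and 10.49 to 8.38, 8.73 and 9.02. Dll3, a Notch pathway ligand, fell by 1.71 ± 0.18, and the proteoglycan Cspg5 by 1.38 ± 0.08. Pdgfra, the growth factor receptor that defines precursors, was at 10.42, 10.33 and 10.38 at day 4 and at 9.72, 9.97 and 9.77 at day 15, a fall by 0.56 ± 0.09 (adjusted p = 0.000147), with 3 probe sets between -0.56 and -0.12. Cspg4, the NG2 proteoglycan, was at 7.48 to 7.70 and at 7.34 to 7.67 and was not called (adjusted p = 0.624).

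The 3 precursor genes called higher were Tnr, Olig2 and Olig1. Tnr, the matrix protein tenascin-R, rose by 1.36 ± 0.08, and by 0.76 more than in wild type (adjusted p = 0.00804). Olig2, the lineage factor whose gene drives Cre in these mice, went from 8.22, 8.36 and 8.30 to 8.68, 9.08 and 9.12 (difference 0.67 ± 0.10, adjusted p = 9.13e-05), and Olig1 rose by 0.59 ± 0.08. Sox10, a factor of the whole lineage, went from 8.82, 8.90 and 8.79 to 9.52, 9.95 and 9.87 (difference 0.94 ± 0.12). For Olig2, the lowest day 15 value was above the highest day 4 value, and the difference from the wild-type change was not called (0.46, adjusted p = 0.272).

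Among targets and feedback genes of the Wnt signal, 22 were measured, of which 11 were called lower, 6 at least 2-fold, 2 higher and 9 neither, while in wild type 7 were lower and 3 higher. Nkd1, which binds Dishevelled and dampens the signal, went from 10.20, 9.74 and 9.91 to 8.38, 8.36 and 8.75 (difference -1.46 ± 0.14, adjusted p = 3.1e-06). Its 4 probe sets ranged from -1.46 to -0.28. In wild type Nkd1 rose from a mean of 7.80 to 8.19, and the difference of the day effects was -1.85 (adjusted p = 0.000935). Sp5, a transcription factor induced by Wnt signals, went from 6.16, 6.14 and 6.26 to 4.80, 4.79 and 4.55, under the level of 5, and differed from wild type by -1.18 (adjusted p = 0.0186).

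Axin2, part of the complex that degrades β-catenin, was at 8.95, 8.80 and 8.95 at day 4 and at 7.83, 7.96 and 7.81 at day 15 (difference -1.03 ± 0.08, adjusted p = 7.27e-07). At day 15 it thus stood close to the wild-type day 4 mean of 7.85 and above the wild-type day 15 mean of 7.35. The other probe set of Axin2 gave a difference of -0.35. Notum, a secreted enzyme that inactivates Wnt proteins, fell by 1.38 ± 0.15, from 9.10, 8.56 and 8.94 to 7.41, 7.29 and 7.74. Neither change was called different from wild type (adjusted p = 0.0925 for Axin2 and 0.0906 for Notum).

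Wif1, a secreted Wnt inhibitor, was at 7.35, 6.69 and 6.84 at day 4 and at 6.58, 6.56 and 6.81 at day 15, with overlapping days and no call (difference -0.31 ± 0.18, adjusted p = 0.175). Its wild-type means were 4.13 and 3.80, both under the level of 5. Lgr5, a receptor for R-spondins, rose by 0.97 ± 0.07, though its other probe set gave -0.09, and Porcn, which adds the lipid to Wnt proteins, by 0.36 ± 0.06. Nkd2 fell by 1.10 ± 0.10, and its 4 probe sets ranged from -1.10 to -0.18. Ctnnb1, the gene of β-catenin, was at 13.20 to 13.23 at day 4 and at 12.95 to 13.04 at day 15, a fall by 0.21 ± 0.07 (adjusted p = 0.0252), with a like change in wild type (-0.20). Probes outside an altered part of a transcript do not report the DA-Cat allele, so its level does not check the genotype.

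**Figure D3:**
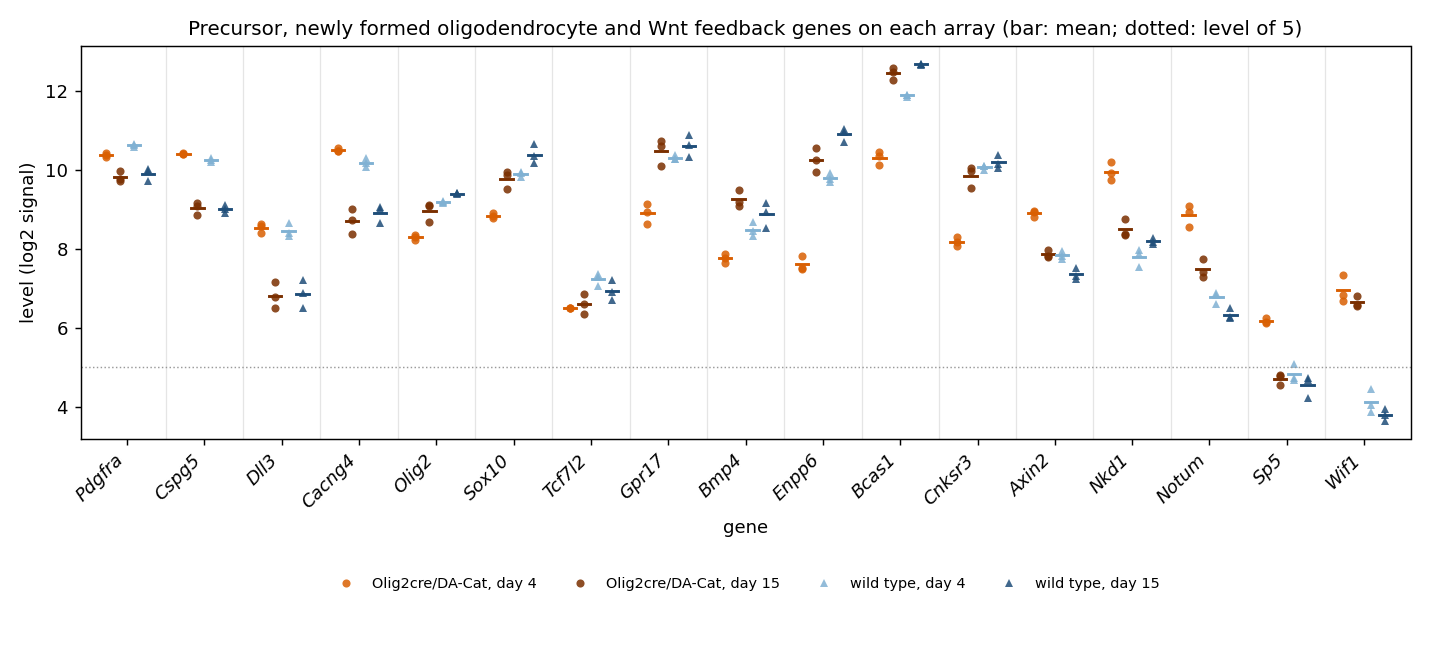
Level (log2 signal, vertical axis) of 17 precursor, newly formed oligodendrocyte and Wnt feedback genes on each of the 12 arrays; circles are Olig2cre/DA-Cat and triangles wild type, light at day 4 and dark at day 15, with bars at group means and a dotted line at the level of 5. Enpp6 in Olig2cre/DA-Cat rises from between 7.50 and 7.82 to between 9.95 and 10.55, Axin2 falls from between 8.80 and 8.95 to between 7.81 and 7.96, and Wif1 overlaps between the days.

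Cell division genes fell together. Of 46 measured, 42 were called lower at day 15, 28 at least 2-fold, and 1 higher, with a median difference of -1.15. In wild type 41 were called lower with a median of -1.04, and limma called the difference between the genotypes for 0 of the 46, with 1 at an unadjusted p below 0.05. Cdk1, the kinase that starts mitosis, was at 8.59, 8.78 and 8.78 at day 4 and at 5.91, 7.12 and 6.87 at day 15 (difference -2.08 ± 0.27, adjusted p = 3.46e-05). Top2a, the topoisomerase of dividing cells, went from 8.48, 8.67 and 8.79 to 5.96, 7.18 and 6.55 (difference -2.09 ± 0.26), with 3 probe sets between -2.09 and -0.07. Day 15 replicate 1, the array with the most muscle RNA, was the lowest of the day 15 arrays for both genes.

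Rrm2, the ribonucleotide reductase subunit of S phase, fell by 2.18 ± 0.13, from 9.31, 9.25 and 9.29 to 6.90, 7.26 and 7.15. Cdt1, a licensing factor of DNA replication, fell by 1.42 ± 0.09 with another probe set at 0.01, Ect2, a regulator of cytokinesis, by 1.59 ± 0.12, and Cenpe, a kinetochore motor, by 1.35 ± 0.11. The days did not overlap in any of these genes, as in 8541 of the 8744 genes called over the whole array. Ccne1, the cyclin of S phase entry, was the member called higher, by 0.19 ± 0.07 (adjusted p = 0.0441), with overlapping days. Ccnd1, a cyclin that is also a Wnt target, was not called (0.23 ± 0.11, adjusted p = 0.117).

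The promoters of these genes and of the myelin and cholesterol genes are shown because these lists were the ones searched for promoter letters; 42 of 46 cell division genes were called lower, and 29 of 29 myelin protein and 11 of 20 cholesterol genes higher. The bases are the 150 before the annotated start, from RefSeq on GRCm38.p6, 5′ to 3′ on the gene's strand, with the searched letters in capitals. Cdk1 lies at chr10:69352913-69353062 and Top2a at chr11:99024190-99024339, both on the minus strand. Hmgcs1 lies at chr13:119690201-119690350 on the plus strand, and Mag at chr7:30914864-30915013 on the minus strand.
Cdk1: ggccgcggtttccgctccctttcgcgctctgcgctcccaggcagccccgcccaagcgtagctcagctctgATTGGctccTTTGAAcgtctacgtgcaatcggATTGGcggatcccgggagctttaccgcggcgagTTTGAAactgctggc
Top2a: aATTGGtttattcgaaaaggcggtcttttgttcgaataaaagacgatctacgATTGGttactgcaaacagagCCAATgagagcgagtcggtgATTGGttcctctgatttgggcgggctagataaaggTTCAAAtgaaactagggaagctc
Hmgcs1: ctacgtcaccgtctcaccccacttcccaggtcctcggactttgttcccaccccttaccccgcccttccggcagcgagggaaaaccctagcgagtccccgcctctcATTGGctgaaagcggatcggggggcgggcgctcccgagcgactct
Mag: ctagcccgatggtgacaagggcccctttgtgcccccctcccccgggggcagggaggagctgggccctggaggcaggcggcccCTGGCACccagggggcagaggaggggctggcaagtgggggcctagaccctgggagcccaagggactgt

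The letters searched were CCAAT, the binding letters of the factor NF-Y, TTTGAA, the core of the cell cycle homology element, and CTGGCAC, a form of the letters bound by Myrf, on both strands of the 250 bases before the start. No motif overlaps another in the windows printed. CCAAT was in the promoters of 29 of 38 cell division genes (76.3%), of 15 of 16 cholesterol genes (93.8%) and of 10 of 24 myelin protein genes (41.7%), against 34.5% of all 27025 promoters. TTTGAA was in 9 of 38 (23.7%), 1 of 16 (6.2%) and 3 of 24 (12.5%), against 16.3% of all. CTGGCAC was in 1 of 38 (2.6%), 0 of 16 and 4 of 24 (16.7%), against 4.1% of all; the 4 myelin genes were Cnp, Hapln2, Mag and Nipal4. Genes with several starts entered by the first listed. A match describes these letters only.

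Genes of immature neurons and axon growth fell. Of 30 measured, 28 were called lower, 14 at least 2-fold, and none higher, with a median of -0.99, and in wild type 26 were lower and 1 higher. Dcx, the microtubule protein of migrating neurons, was at 10.13, 10.46 and 10.51 at day 4 and at 7.02, 7.62 and 7.55 at day 15 (difference -2.97 ± 0.15, adjusted p = 2.35e-08), and its 4 probe sets ranged from -2.97 to -0.13. Gap43, a protein of growth cones, went from 12.38, 12.42 and 12.41 to 10.29, 10.41 and 10.46 (difference -2.02 ± 0.07, adjusted p = 7.48e-10). Crmp1, which relays axon guidance signals, went from 11.84, 11.91 and 11.96 to 9.05, 9.25 and 9.53 (difference -2.63 ± 0.11). Each fell by well over the spread of the replicates.

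Dpysl3 and Dpysl5, of the same family as Crmp1, fell by 1.90 ± 0.06 and 2.06 ± 0.08, and the adhesion molecules Ncam1 and L1cam by 1.85 ± 0.08 and 1.38 ± 0.07. The 7 probe sets of Ncam1 ranged from -1.85 to 0.77. St8sia2, which adds polysialic acid to Ncam1, fell by 2.95 ± 0.10, from 8.44, 8.90 and 8.83 to 5.75, 5.82 and 5.74. Stmn4, a microtubule regulator of neurons, was the member whose change differed from wild type: it fell by 0.40 ± 0.09 in Olig2cre/DA-Cat and rose by 0.39 in wild type (difference -0.79, adjusted p = 0.017).

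The 15 lowest differences included Dcx, St8sia2, Crmp1 and, described with the astrocyte genes, Tnc. Cxadr, the adhesion molecule used by coxsackieviruses and adenoviruses, had the lowest, at -3.76 ± 0.13 (adjusted p = 1.43e-09), from 10.56, 10.70 and 10.72 to 6.88, 7.04 and 6.79, but its 5 probe sets ranged from -3.76 to 0.05. Ablim3, an actin-binding protein, fell by 2.99 ± 0.08, Syce2, of the meiotic synaptonemal complex, by 2.96 ± 0.14, and Rac3, a small GTPase of developing neurons, by 2.94 ± 0.13. Col14a1, a collagen of fibrous tissue, fell by 2.71 ± 0.21, with its 3 probe sets between -2.71 and -0.11, and B3gnt5, a glycolipid-forming enzyme, by 2.65 ± 0.16. The other probe set of B3gnt5 gave -0.31. Amn fell by 2.57 ± 0.17 and Fam184b by 2.56 ± 0.08, the latter with 3 probe sets between -2.56 and -0.08. Syt17 fell by 2.68 ± 0.07, the transcription factor Tfap2b by 2.67 ± 0.10 and Nnat, an imprinted gene of developing neurons, by 2.54 ± 0.13. Each of the 15 falls had a counterpart in wild type of -2.18 or lower, and none of the differences between the genotypes was called. The nearest to a call was that of St8sia2 (-0.77, adjusted p = 0.0571).

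Transcription factors that define classes of spinal interneurons fell. Of 25 measured, 20 were called lower, 12 at least 2-fold, and none higher, and in wild type 20 were lower. Lhx1, of early ventral and dorsal interneurons, went from 9.03, 9.10 and 9.11 to 6.99, 6.80 and 7.27 (difference -2.06 ± 0.11, adjusted p = 3.05e-08). Ebf3 fell by 1.49 ± 0.09, Prrxl1, a factor of pain-relay neurons, by 1.47 ± 0.09, Lmx1b by 1.45 ± 0.09 and Foxp2 by 1.07 ± 0.07. Another probe set gave -0.02 for Lmx1b and 0.01 for Foxp2. The replicates of the days were apart in each, as in most called genes.

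Of 19 motor neuron genes, a cell type that Olig2cre also reaches, 7 were called lower and none higher. Over all genes 26.3% were called lower and 21.8% higher. Isl1, a factor of motor neuron identity, fell by 1.25 ± 0.11, Etv4, a factor of motor pools, by 0.95 ± 0.09, and Chodl, a gene of fast motor neurons, by 0.86 ± 0.06. Ret, the receptor for GDNF family factors, fell by 0.58 ± 0.07. Chat, which makes acetylcholine, was at 5.55 to 5.78 and at 5.43 to 5.74 and was not called (adjusted p = 0.62), and Slc18a3 was not called either (-0.11 ± 0.14, adjusted p = 0.558). In wild type 8 of the 19 were called lower.

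Subunits of transmitter receptors moved both ways. Of 24 receptor and chloride transporter genes, 7 were called higher and 11 lower. Glra2, the glycine receptor subunit of immature neurons, went from 10.03, 10.11 and 10.22 to 7.59, 7.94 and 7.94 (difference -2.30 ± 0.10, adjusted p = 6.19e-09), while Glra1, the adult subunit, went from 9.45, 9.33 and 9.27 to 10.76, 10.44 and 10.74 (difference 1.30 ± 0.09, adjusted p = 1.43e-07). Like most called genes, neither overlapped between the days, and neither change was called different from wild type. Among NMDA receptor subunits, Grin2d fell by 1.45 ± 0.11 and Grin2b by 1.03 ± 0.09, and Grin2c rose by 1.21 ± 0.15 from 5.07, 5.43 and 5.55 to 6.87, 6.29 and 6.52. Other probe sets gave -0.13 for Grin2d and -0.01 for Grin2b. Grin2a was under the level of 5 at both days.

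Grik1, a kainate receptor subunit, fell by 1.31 ± 0.07 with its other probe set at -0.07, and Gabra5, a GABA receptor subunit, by 0.95 ± 0.07. Of the chloride transporters, Slc12a2, which brings chloride into cells and is used by oligodendrocytes as well as neurons, rose by 1.40 ± 0.07, from 10.48, 10.47 and 10.63 to 11.82, 12.01 and 11.94. Slc12a5, which exports chloride from mature neurons, was at 11.79 to 11.86 and at 11.48 to 11.79 and was not called (adjusted p = 0.15).

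Several axonal channels of the node and its flanks rose. Of 20 measured node and paranode genes, 10 were called higher, 6 at least 2-fold, and 5 lower. Kcna1, a potassium channel of the juxtaparanode, went from 9.73, 9.34 and 9.36 to 12.52, 12.18 and 12.33 (difference 2.87 ± 0.11, adjusted p = 2.38e-09), and its 4 probe sets ranged from 0.13 to 3.17. Kcna2 rose by 1.86 ± 0.09, the highest of its 4 probe sets, which began at 0.00, and Kcnab2, their auxiliary subunit, by 1.71 ± 0.09. Scn2a, the sodium channel of immature nodes, fell by 1.14 ± 0.06 (4 probe sets, -1.14 to -0.16), and Scn8a, the channel of mature nodes, rose by 0.68 ± 0.10 (5 probe sets, -0.02 to 0.86). Kcng4, a modifier of potassium channels, rose by 3.53 ± 0.21, from 5.70, 5.51 and 5.08 to 9.31, 8.87 and 8.70.

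Scn4b, an auxiliary sodium channel subunit, went from 8.18, 7.61 and 7.63 to 11.46, 10.71 and 11.15 (difference 3.30 ± 0.19). Pvalb, a calcium buffer of fast-firing neurons and of fast muscle, went from 7.81, 7.82 and 7.88 to 13.23, 11.56 and 12.17 (difference 4.48 ± 0.30, adjusted p = 1.38e-07). Both were highest on day 15 replicate 1, the array with the most muscle RNA. Pvalb is itself a member of the adult muscle list. On day 15 replicate 2, where the mean of the adult muscle genes was 5.91, Pvalb was at 11.56 and Scn4b at 10.71. The mean muscle level, to which Pvalb itself contributes, entered an alternative fit. Beyond that fit the part of muscle RNA in both rises was not tested.

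Of 18 neurofilament and mature axon genes, 7 were called higher and 3 lower, near the 48.1% called over all genes. Nefh, the heavy neurofilament of thick axons, went from 11.44, 11.19 and 11.30 to 12.83, 12.45 and 12.77 (difference 1.37 ± 0.10), Nefl rose by 0.35 ± 0.07, and Ina, the neurofilament of young axons, fell by 0.23 ± 0.07 (adjusted p = 0.0202). Mapt, the axonal tau protein, fell by 1.31 ± 0.07. Of 28 synapse genes 8 were called higher and 11 lower. Stx1a, a syntaxin of vesicle release, fell by 1.76 ± 0.11, from 11.25, 11.28 and 11.27 to 9.24, 9.62 and 9.66. Vamp1 rose by 1.25 ± 0.11 and Snap25 by 0.62 ± 0.07, whereas Vamp2 fell by 0.76 ± 0.07 and Syt1 by 0.59 ± 0.06, with another probe set of Syt1 at -0.02. Members of the same release machinery thus changed in opposite directions.

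**Figure D4:**
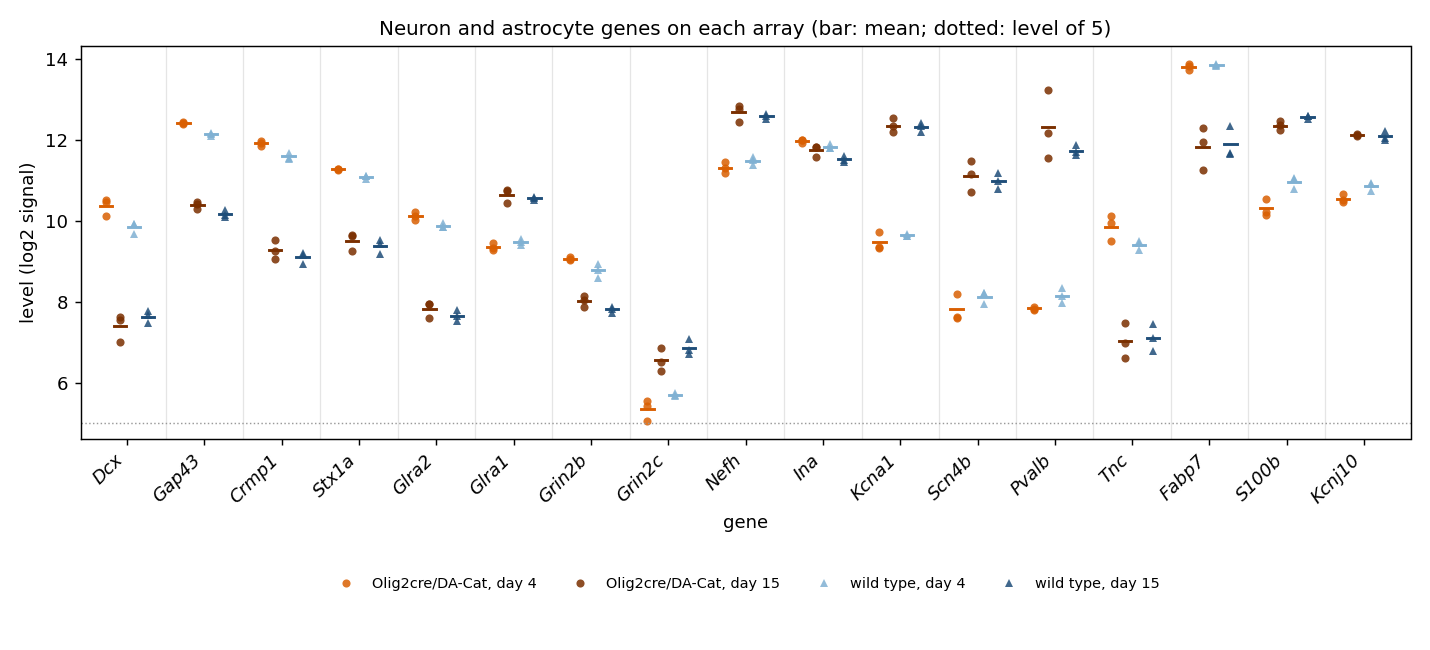
Level (log2 signal, vertical axis) of 17 neuron and astrocyte genes on each of the 12 arrays; circles are Olig2cre/DA-Cat and triangles wild type, light at day 4 and dark at day 15, with bars at group means and a dotted line at the level of 5. Glra2 in Olig2cre/DA-Cat falls from between 10.03 and 10.22 to between 7.59 and 7.94 while Glra1 rises from between 9.27 and 9.45 to between 10.44 and 10.76, and the wild-type arrays shift alike.

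Of 29 astrocyte genes 15 were called higher, 8 at least 2-fold, and 7 lower. Gjb6, a connexin of astrocyte gap junctions, rose by 2.23 ± 0.13, from 8.93, 8.63 and 8.73 to 11.30, 10.69 and 10.98. S100b, a calcium-binding protein of astrocytes and oligodendrocytes, went from 10.54, 10.14 and 10.22 to 12.36, 12.45 and 12.22 (difference 2.04 ± 0.11). Kcnj10, the potassium channel of potassium uptake, rose by 1.57 ± 0.08 and Slc1a2, the main glutamate transporter, by 1.32 ± 0.09. Gfap, the astrocyte intermediate filament, was at 12.16, 11.90 and 11.91 and at 12.77, 13.00 and 12.72 (difference 0.84 ± 0.10, adjusted p = 1.41e-05). Of 13 genes of glial ion and water handling, which include members of other lists, 10 were called higher and none lower. Aqp4, the water channel of astrocyte endfeet, was not among them (0.23 ± 0.11, adjusted p = 0.0974).

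The 7 astrocyte genes called lower were Tnc, Fabp7, Vim and Slc1a3, which the radial glia and progenitor list also holds, and Slc6a11, Aldh1l1 and Sox9. Nes, the intermediate filament nestin and the other gene in both lists, was not called (-0.07 ± 0.06, adjusted p = 0.437). Tnc, the matrix protein tenascin-C, went from 9.49, 10.13 and 9.94 to 6.62, 7.49 and 6.98 (difference -2.82 ± 0.22, adjusted p = 5.3e-07). Slc1a3, the other glial glutamate transporter, fell by 0.85 ± 0.11, and Aldh1l1, an enzyme of folate metabolism, by 0.48 ± 0.06, with another probe set of Aldh1l1 at -0.08. Of 21 radial glia and progenitor genes 14 were called lower, 6 at least 2-fold, and 1 higher. Fabp7, the lipid-binding protein of radial glia, went from 13.71, 13.87 and 13.81 to 11.26, 12.28 and 11.94 (difference -1.97 ± 0.22). Hes5, a Notch target, fell by 1.61 ± 0.17 and Vim, the intermediate filament vimentin, by 1.08 ± 0.12.

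Hmga2, a chromatin protein of young progenitors, fell by 1.79 ± 0.06, from 8.24, 8.18 and 8.15 to 6.36, 6.50 and 6.35. The fall was larger than in wild type (difference of the day effects -0.57, adjusted p = 0.0106), and the Olig2cre/DA-Cat arrays at day 4 stood above the wild-type mean of 7.50. Its 4 probe sets ranged from -2.36 to -0.12. Prom1, the membrane protein prominin, was the progenitor gene called higher, by 1.07 ± 0.09. Of 18 fetal growth and imprinted genes 7 were called lower and 3 higher. Igf2, the fetal growth factor, fell by 1.45 ± 0.24, Dlk1 by 1.44 ± 0.17 and Impact, an imprinted regulator of translation, rose by 0.97 ± 0.08. A second probe set of Dlk1 rose by 1.48, so the direction of that gene rests on the probe set.

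Of 25 microglia and macrophage genes 15 were called higher and 2 lower, with a median of 0.40, and in wild type 20 were higher and 2 lower. Selplg, a selectin ligand, rose by 1.29 ± 0.10, from 6.76, 6.77 and 6.55 to 7.96, 8.15 and 7.86. Tmem119, a microglial surface protein, rose by 0.70 ± 0.07 and Csf1r, the receptor microglia need to survive, by 0.44 ± 0.07. The 2 called lower were Lyve1, a marker of perivascular and meningeal macrophages and lymphatic vessels, by 1.09 ± 0.26, and Sall1, by 0.71 ± 0.12 with its other probe set at -0.02. Of 18 complement and phagocyte genes 11 were called higher and 1 lower: C1qa rose by 0.53 ± 0.09, the protease Ctsd by 0.62 ± 0.08, and Igf1, a growth factor of early microglia among other cells, fell by 1.10 ± 0.22 (4 probe sets, -1.10 to -0.18).

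Of 25 endothelial and barrier genes 13 were called higher and 4 lower. Slco1a4, an organic anion transporter of the blood-brain barrier, went from 8.03, 7.51 and 7.61 to 10.28, 9.67 and 9.92 (difference 2.24 ± 0.18). Mfsd2a, the lipid transporter of barrier endothelium, rose by 1.41 ± 0.09, Abcb1a, a drug efflux pump, by 1.08 ± 0.10 and Apln by 1.69 ± 0.16. Flt1, a VEGF receptor, rose by 0.74 ± 0.08, with another probe set at 0.14. The 4 called lower were the tight junction gene Cldn5, by 0.30 ± 0.11, the cadherin Cdh5, by 0.33 ± 0.10 with its other probe set at 0.06, the amino acid carrier Slc7a5, by 0.60 ± 0.09, and the Wnt transcription factor Lef1, by 0.41 ± 0.07. Of 13 pericyte and smooth muscle genes 5 were called higher and 2 lower. The 5 became 2 without day 15 replicate 2, 3 without day 4 replicate 3, and 2 with the level of Eif2s3y in the model.

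Meningeal and collagen genes mostly fell. Of 25 measured, 16 were called lower and 2 higher, and in wild type 19 were lower and 2 higher. Postn, the matrix protein periostin, went from 8.70, 9.84 and 9.36 to 7.33, 7.36 and 7.29 (difference -1.97 ± 0.32, adjusted p = 0.000231). Igfbp2 fell by 1.67 ± 0.20 and Aldh1a2, which makes retinoic acid in meninges and motor neurons, by 1.61 ± 0.28. The 2 called higher were Mgp, an inhibitor of calcification, by 1.50 ± 0.30, and Sparc, by 0.92 ± 0.07 with another probe set at -0.03. Col1a1, the main collagen of fibrous tissue, had levels of 9.79 to 10.48 and of 9.23 to 9.50 and was not called (adjusted p = 0.105).

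In the list of perineuronal net and adult matrix genes, 7 of 18 were called higher and 5 lower. The list also holds Ncan and members of the myelin, precursor and radial glia lists, such as Hapln2, Cspg5, Tnr and Tnc. Ncan, a proteoglycan of the young nervous system, fell by 1.65 ± 0.17 and Hapln1, a link protein of perineuronal nets, rose by 1.27 ± 0.13. Acan, the core proteoglycan of those nets, rose by 0.60 ± 0.14, from 5.98, 5.95 and 6.40 to 6.75, 6.59 and 6.79. Vcan, whose 8 probe sets lay between -0.17 and 0.20, was not called (adjusted p = 0.861).

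Of 13 Schwann cell genes 4 were called higher and 1 lower, a called share below the 48.1% of all genes. Cdh19, a cadherin of Schwann cells and of oligodendrocytes, went from 5.52, 5.23 and 5.12 to 8.49, 7.68 and 7.96 (difference 2.75 ± 0.20), with the same size of change in wild type (2.75). Ncmap, a protein of peripheral myelin, rose by 1.63 ± 0.20 (difference from wild type 1.08, adjusted p = 0.186). Of 23 genes of ependyma and motile cilia 10 were called lower and 2 higher, none by 2-fold, and Foxj1, the factor of motile cilia, was not called (-0.21 ± 0.08, adjusted p = 0.055).

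Thyroid hormone is known to drive oligodendrocyte maturation. The thyroid hormone list holds receptors, the enzyme Dio2 and a transporter as well as responding genes, so its counts do not measure a response. Of its 10 measured members 6 were called higher, 4 at least 2-fold, and 1 lower. Hr, a corepressor induced by the hormone, went from 5.67, 5.62 and 5.75 to 8.16, 7.49 and 8.22 (difference 2.28 ± 0.15, adjusted p = 1.37e-07). Klf9 rose by 1.75 ± 0.10 (7 probe sets, 0.18 to 2.04) and Dio2, which makes the active hormone, by 1.58 ± 0.13 (3 probe sets, 0.13 to 1.58). The receptor gene Thra was the member called lower, by 0.63 ± 0.06, with another probe set at 0.09. In wild type the counts were likewise 6 and 1.

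Of 33 genes of the mitochondrial respiratory chain 21 were called higher and none lower, at a median of 0.17. Ndufb9 rose by 0.49 ± 0.05, Ndufv1 by 0.44 ± 0.06 and Sdha by 0.61 ± 0.08 (4 probe sets, 0.00 to 0.95). Cox7a1, a muscle form of a cytochrome oxidase subunit, was the one gene past 2-fold, at 5.71, 6.15 and 6.12 and then 8.78, 6.69 and 7.15. Its high value was on the muscle-rich day 15 replicate 1. In wild type 13 of the 33 were called higher.

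Of 18 adult muscle genes 2 were called higher and none lower. Their members spread widely within each day: Acta1, muscle actin, was at 8.06, 11.71 and 10.18 at day 4 and at 13.17, 6.42 and 10.64 at day 15. The 2 were Pvalb and Myh4, a fast myosin, which was at 3.20, 3.69 and 3.39 and at 9.92, 3.61 and 7.58, so its days overlapped. The count became 12 without day 15 replicate 2 and 16 with the level of Eif2s3y in the model. With the mean muscle level in the model 6 members were called lower. That mean was taken over these same 18 genes, so the fit sets each member against its own list. Myh8, the perinatal myosin, was at 5.16, 7.80 and 7.25 and at 4.60, 4.21 and 4.37, a fall by 2.35 ± 0.74 (adjusted p = 0.0202). The mean level of the adult muscle genes varied within each day, from 5.93 to 8.51 at day 4 and from 5.91 to 11.43 at day 15. Its part in these differences was not tested beyond the fit with that level, which for the adult muscle genes is no test. Of 11 red blood cell genes 3 were called higher, 5 after centring the arrays, led by the transferrin receptor Tfrc, which rose by 0.88 ± 0.10.

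Hox genes record the level of the cord, so their levels also bear on which part of it was taken. Of 10 lumbosacral Hox genes 6 were called lower in Olig2cre/DA-Cat and 1 in wild type. Hoxd10 went from 10.49, 10.85 and 10.65 to 8.35, 9.40 and 9.57 (difference -1.56 ± 0.24), and Hoxc13 from 7.12, 7.62 and 7.11 to 5.11, 6.04 and 6.38 (difference -1.44 ± 0.27). In both, day 15 replicate 1 was the lowest array. Limma called the change different from wild type for 0 of the 10 (1 at an unadjusted p below 0.05), and the count fell to 3 when the 6 arrays were fitted alone. Of 15 brachial and thoracic Hox genes 8 were called lower, Hoxb9 by 1.16 ± 0.12, and 1, Hoxd8, higher by 0.43 ± 0.07. That count was 5 with the level of Eif2s3y in the model. The part of the dissected level in the other results was not tested.

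Immediate early genes, which respond to activity and to handling, were called higher for 5 of 16 and lower for 2. That called share was below the 48.1% of all genes. Arc rose by 1.33 ± 0.09, from 5.90, 5.88 and 5.97 to 7.16, 7.26 and 7.32, and Egr1 by 1.36 ± 0.22, from 8.40, 8.37 and 8.26 to 10.28, 9.07 and 9.75. Of 19 genes of the amino acid and endoplasmic reticulum stress response 8 were called higher and 2 lower, with Herpud1 rising by 0.95 ± 0.09 and Psat1, of serine synthesis, by 0.84 ± 0.07. Of 19 interferon and MHC class I genes 2 were called higher, 6 after centring the arrays, and 3 lower. Before centring, this too was below the share over all genes. Limma called the change different from wild type for 0 members of these 3 lists, with 3, 2 and 0 at an unadjusted p below 0.05.

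The 64 genes whose change between days differed from wild type were led by oligodendrocyte genes. The 10 with the smallest p were Mobp, Mbp, Fa2h, Ermn, Tmem88b, Mag, Ugt8a, Gsn, Cldn11 and Mog, and each rose more in Olig2cre/DA-Cat. Among the genes with the opposite sign, chosen here after their values were seen, Prss56, a serine protease, was at 8.13, 7.78 and 8.06 at day 4 and at 5.93, 5.53 and 6.42 at day 15 (difference -2.03 ± 0.17), against 4.45 and 4.10 in wild type, both under the level of 5. Its difference of the day effects was -1.69 (adjusted p = 0.00796). Shtn1, which acts in axon outgrowth, fell by 2.35 ± 0.11 against 1.44 in wild type (difference -0.91, adjusted p = 0.0215).

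Some genes changed in opposite directions or in wild type alone. Srpx rose by 1.11 ± 0.14 in Olig2cre/DA-Cat, from 5.31, 5.15 and 5.13 to 6.41, 6.14 and 6.36, while its wild-type mean went by -0.58 (difference 1.69, adjusted p = 0.00134). Nmral1, a sensor of NADPH, was at 7.23 to 7.42 and at 7.19 to 7.53 in Olig2cre/DA-Cat with no call, and rose by 1.13 in wild type (difference -1.11, adjusted p = 0.00134). Both genes were chosen after their values were seen. Of the 2-fold calls, wild type had 473 higher and 559 lower, against 546 and 721 in Olig2cre/DA-Cat.

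**Figure D5:**
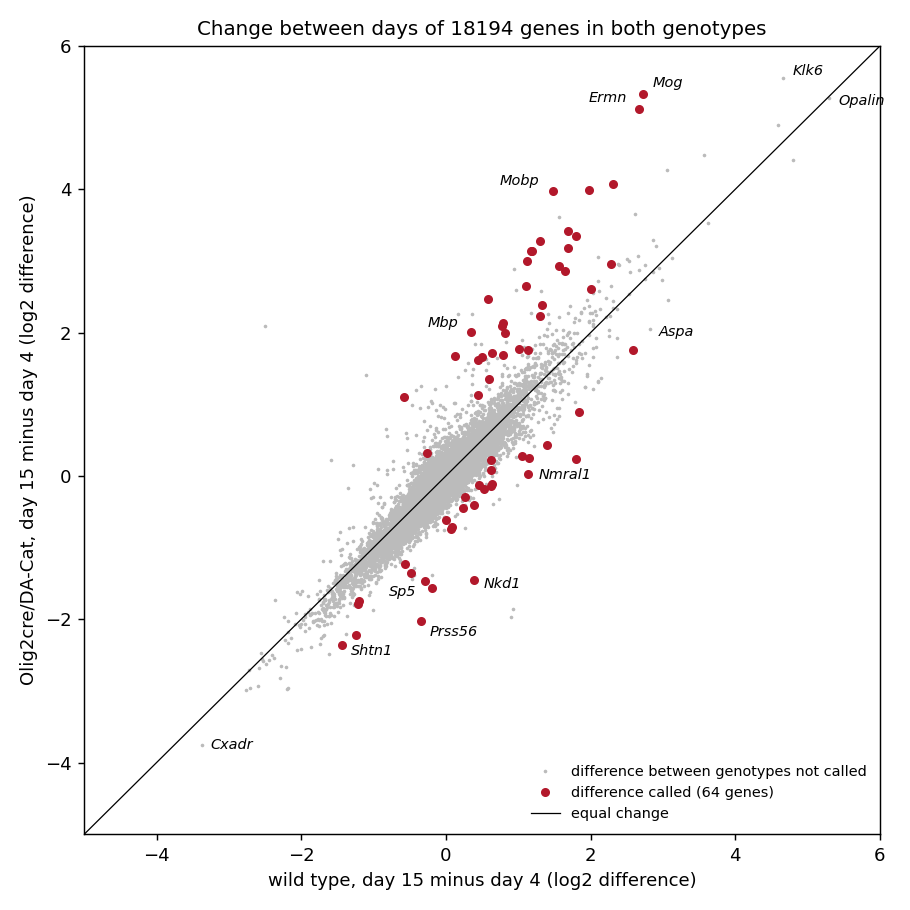
Difference between day 15 and day 4 of 18194 genes in wild type (horizontal axis, log2) and in Olig2cre/DA-Cat (vertical axis, log2); red points are the 64 genes whose difference between the genotypes was called, and the line marks equal change. Mog (5.33 against 2.73) and Mobp (3.98 against 1.48) lie far above the line, Nkd1 (-1.46 against 0.39) below it, and Opalin (5.28 against 5.30) and Cxadr (-3.76 against -3.38) near it.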

How the data were processed

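The deposited values are log2 signals, 1 per probe set and array, in the authors' value table; background correction, summarisation and normalization are not given in the sources used here, and the log2 scale was judged from the values. The platform annotation gave 1 symbol for 34958 of the 45101 probe sets, several for 932 and left 9211 unnamed here. Each of 18194 genes was represented by its brightest probe set, judged by the mean of all 12 arrays, and 9012 had a choice of probe sets. Symbols were checked against RefSeq (34754 matched, 0 changed). The number of arrays limits the precision, and array data carry no read depth.

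Group means of all 12 arrays were estimated with limma 3.58.1 (R 4.3.3; functions lmFit and eBayes; 8 residual and 3.96 prior degrees of freedom), with contrasts between the days in each genotype and their difference. Two-sided p-values were adjusted by Benjamini-Hochberg across 18194 genes, threshold 0.05. In simulated data for the Olig2cre/DA-Cat contrast over 18194 genes, 100 genes changed by 0.5 log2 and 100 by 1 log2, with independent normal noise. The fit recovered 75% of the changes of 0.5 log2 and 95% of those of 1 log2, with 8 false calls. Far fewer genes changed there than the 8744 called in the data, so these figures do not describe the real contrast.

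The samples and the 37 gene lists (817 entries, 752 measured, the rest not analysed here) were chosen with earlier results of these data known, so list counts are descriptions; 1 list, of sex-linked genes, is given only as values. The named genes were drawn from the 15 highest and 15 lowest differences among called genes without overlapping days and with a higher mean of at least 7 (clone names and sex-linked genes passed over), up to 6 members per list with the smallest p and any member called against its list, fixed switch partners and a fixed panel, and the 10 smallest p for the difference of the day effects. Slc18a3, Xist, Eif2s3y, Qdpr, Cnp, Aspa, Ndrg1, Cryab, Myrf, Gpr17, Bmp4, Cspg4, Cdk1, Top2a, Ccnd1, Nes, Nipal4, Stmn4, Chat, Scn8a, Aqp4, Col1a1, Hapln1, Foxj1, Cox7a1, Acta1, Prss56, Shtn1, Srpx and Nmral1 were named after their values were seen. Alternatives were quantile normalization, centred arrays, array weights, limma's trend and robust settings, the mean of all probe sets, filters on dim genes, covariates for muscle and Eif2s3y, the 6 arrays alone, a replicate block and leaving out each array.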

Additional observations from a re-analysis of the deposited data

Results flagged for a closer look

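The following genes are set out because the test of the difference between the day effects of the genotypes was past its threshold (limma, Benjamini-Hochberg adjusted over 18194 genes). The values are the change from day 4 to day 15 in Olig2cre/DA-Cat minus that in wild type, on the log2 scale, with 3 arrays in each of 4 groups. Among myelin protein genes the difference was 2.61 for Mog, 2.50 for Mobp, 2.45 for Ermn, 2.00 for Tmem88b, 1.96 for Cldn11, 1.95 for Mag, 1.76 for Mal, 1.73 for Tmem125 and 0.67 for Hapln2. It was 1.66 for Mbp, whose day 15 levels, and wild-type level at day 4, stood close to the array maximum. Gsn had 1.50, with probe sets that disagreed. The lipid enzymes Ugt8a and Fa2h had 1.97 and 1.55.

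Among genes of newly formed oligodendrocytes the difference was 1.55 for Cnksr3, 1.54 for Enpp6, 1.35 for Bcas1, 1.17 for Sirt2 and 1.17 for Nfasc. The probe sets of Bcas1 and of Nfasc differed in the size of their rise in Olig2cre/DA-Cat. Tnr, a matrix gene, had 0.76. The other 3 had the opposite sign: Nkd1 with -1.85, Sp5 with -1.18 and Hmga2 with -0.57. The probe sets of Nkd1 and of Hmga2 differed in the size of their fall in Olig2cre/DA-Cat. The group means of Sp5 in wild type, and that of Olig2cre/DA-Cat at day 15, were under the level of 5. The cause of these differences was not tested.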

How the results depend on the processing

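Counts between the days in Olig2cre/DA-Cat stayed within 1.5 times under all 17 alternatives, and leaving out each array gave 3441 to 3703 higher and 4319 to 4610 lower; centring turned the split as given above. Of 260 named calls, 228 held in every alternative that tested them and 32 were lost in at least 1. Dlk1 turned to 0.016 with the mean of all probe sets. The difference of the day effects moved more. Its positive calls became 56 with array weights and 55 without the dimmest 50% of genes, and ran from 27 to 57 over left-out arrays, highest without Olig2cre/DA-Cat day 15 replicate 1. Its negative calls became 61 with trend and robust settings, 62 with array weights, 44 without the dimmest 30% and 62 without the dimmest 50%. They ran from 18 to 40 over left-out arrays: 18 without Olig2cre/DA-Cat day 4 replicate 3, and 19 without Olig2cre/DA-Cat day 4 replicate 2, wild type day 4 replicate 1 or 2, or wild type day 15 replicate 1. Of the 64 genes reported, between 44 and 63 stayed called in each alternative. The fewest stayed with the level of Eif2s3y in the model, and the most with trend and robust settings. Without Olig2cre/DA-Cat day 4 replicate 3, 45 stayed. The cause was not tested. The filter on dim genes also removes list members: cell division kept 16 of 42 calls without the dimmest 50%, since fewer genes were tested.

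No pairing by replicate number was seen: deviations of same-numbered Olig2cre/DA-Cat arrays correlated at -0.27, -0.30 and 0.10. So few values cannot exclude one. With a replicate block 3987 genes were higher and 4822 lower, 38 and 27 differed from wild type, and all 260 named calls held. Genes near the background or the array maximum are limited by signal.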
